A study of Mus musculus with 8 samples.

Results

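The collagen genes on a mouse skin expression array were examined across 3 groups of skin samples. A gene was taken when the RefSeq accession of a probe led to a symbol of the form Col, number, a, number, and each gene was represented by the probe with the highest mean in the deposited matrix. This gave 42 collagen genes, with 61 probes, of 20145 genes with a symbol on the array. They comprised 11 fibrillar genes, 9 genes of basement membranes and their anchoring structures, the hemidesmosome gene Col17a1, 8 fibril-associated genes, 5 beaded filament genes (collagen VI), 3 short chain genes, 3 other transmembrane genes and 2 others.

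RNA came from skin of C57BL/6N mice whose Cchcr1 gene had been edited with CRISPR and which lose hair in patches, and from wild type mice of the same strain. Cchcr1 encodes a coiled-coil protein. The 3 groups were wild type normal skin (n = 2), Cchcr1 mutant normal skin (n = 4) and Cchcr1 mutant hair loss skin (n = 2), with 1 single-colour array per sample. The titles of hair loss replicate 1 and mutant normal skin replicates 1 and 2 begin with Mutant097, those of hair loss replicate 2 and mutant normal skin replicates 3 and 4 with Mutant113, and both wild type titles with Wild001. The labels give no age, sex or body site and do not settle whether each number stands for 1 animal, so the p-values measure only the spread between these samples, which may be technical. Wild type skin has 1 number, so effects of genotype and of number cannot be told apart where it is used.

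Collagens are proteins whose chains wind around each other into a rope-like helix. Fibrillar collagens, mainly types I, III and V in skin, are made by dermal fibroblasts and give the dermis its tensile strength. Type IV collagen forms the network of basement membranes, type VII forms the anchoring fibrils that tie the epidermal basement membrane to the dermis, and type XVII crosses the keratinocyte membrane in hemidesmosomes. Type XVII is also known for its part in keeping hair follicle stem cells. Fibril-associated collagens sit on the surface of fibrils, and collagen VI forms beaded filaments.

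The 250 bases upstream of the transcription start of 4 of these genes are shown, because Col1a2, Col3a1 and Col5a1 had similar patterns across the samples while Col17a1, made by keratinocytes, did not share it. They are RefSeq sequences of the mouse build GRCm38.p6, written 5′ to 3′ on the strand of the gene. Capitals mark matches on either strand to CCAAT (read as ATTGG from the other strand), to the GC box GGGCGG (read as CCGCCC from the other strand) and to TATAA (read as TTATA from the other strand). In Col3a1 a match to TATAA overlaps a match to its reverse.
Col1a2, chr6:4505368-4505617, + strand: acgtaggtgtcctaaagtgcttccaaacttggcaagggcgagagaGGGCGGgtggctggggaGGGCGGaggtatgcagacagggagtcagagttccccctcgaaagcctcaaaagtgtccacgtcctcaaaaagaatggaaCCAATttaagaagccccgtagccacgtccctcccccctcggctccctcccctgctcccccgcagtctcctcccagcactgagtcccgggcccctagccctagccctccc
Col3a1, chr1:45311288-45311537, + strand: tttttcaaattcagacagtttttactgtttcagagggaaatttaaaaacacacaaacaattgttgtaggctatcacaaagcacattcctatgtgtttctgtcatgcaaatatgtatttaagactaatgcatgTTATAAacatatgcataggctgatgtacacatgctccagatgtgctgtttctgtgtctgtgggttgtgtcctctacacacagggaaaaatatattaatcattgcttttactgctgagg
Col5a1, chr2:27886175-27886424, + strand: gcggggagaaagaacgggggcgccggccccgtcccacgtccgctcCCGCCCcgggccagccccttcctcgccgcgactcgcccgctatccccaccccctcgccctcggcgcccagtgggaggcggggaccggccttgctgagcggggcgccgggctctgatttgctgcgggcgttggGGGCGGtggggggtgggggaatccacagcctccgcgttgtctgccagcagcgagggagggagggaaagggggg
Col17a1, chr19:47692043-47692292, - strand: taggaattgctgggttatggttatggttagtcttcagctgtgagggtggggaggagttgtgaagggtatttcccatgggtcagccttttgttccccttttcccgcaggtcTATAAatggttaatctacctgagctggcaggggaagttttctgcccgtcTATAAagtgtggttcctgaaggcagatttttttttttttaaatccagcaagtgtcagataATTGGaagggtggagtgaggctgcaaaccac

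The 3 fibrillar windows differed in base composition. G and C made up 62% of the Col1a2 window, 35.2% of that of Col3a1, 76.4% of that of Col5a1 and 46% of that of Col17a1. Of 34 collagen genes with a promoter in the table, 12 (35.3%) held a CCAAT match in this window, against 34.5% of 27025 promoters. The GC box was in 21 of them (61.8%) and in 32.9% of all promoters. TATAA was in 7 (20.6%) and in 23.5% of all promoters. These matches describe letters only and are not evidence of binding.

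The arrays lay on 1 slide, and the 75th percentile of their processed intensity ran from 83.1 to 211, and precision is limited by the small number of arrays. A level here is the log2 of the processed intensity minus that of the 75th percentile of the same array, so 0 stands for that percentile. Levels were compared between samples for 1 probe at a time and not between genes. All 4 basal keratinocyte markers (Krt5, Krt14, Trp63, Krt15) and all 8 dermal fibroblast markers were well above background on all 8 arrays. In bulk skin, fewer cells of a type and less RNA per cell cannot be told apart.

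Of the 42 collagen genes, 30 were tested because their probe was well above background on at least 2 arrays, and 21 were above background on all 8. The 12 genes left out were Col2a1, Col11a2, Col24a1, Col9a1, Col9a3, Col19a1, Col6a4, Col6a5, Col6a6, Col13a1, Col25a1 and Col28a1, of which 9 were above background on no array and 3 on 1 array. The tested genes comprised 8 of 11 fibrillar, 9 of 9 basement membrane, 5 of 8 fibril-associated, 2 of 5 beaded filament and 3 of 3 short chain genes, besides Col17a1, Col23a1 and Col26a1.

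No collagen gene passed an adjusted p of 0.05 in the 3 group comparisons (limma, Benjamini-Hochberg over 30466 probes). In hair loss against normal skin of mutants the count was 0 of 30, as it was 0% of all probes, and 2 of 30 (Col20a1 and Col10a1) had an unadjusted p under 0.05, against 5.2% of all probes. In normal skin of mutants against wild type the count was 0 of 30, where 0.679% of all probes were called, and 6 of 30 (Col3a1, Col5a1, Col5a3, Col11a1, Col6a2 and Col26a1) had an unadjusted p under 0.05, against 17.2% of all. In hair loss skin against wild type it was 0 of 30 against 1.41% of all probes, with 9 of 30 at an unadjusted p under 0.05 against 24.8%. Both unadjusted counts against wild type hold Col11a1 and Col26a1, and that of hair loss skin also Col8a1 and Col10a1. These genes were above background on no wild type array and entered the test through mutant arrays where they are high. Nothing is read from their place in the counts. A fit with the slide row as a block sets wild type against normal skin of Mutant113 only, and hair loss skin against that of Mutant097 only. In that fit 7 of 30 were called between normal skin of mutants and wild type (2.81% of all probes) and 6 of 30 between hair loss skin and wild type (4.35%). Each of these counts holds Col8a1, called higher, to which the same limit applies. Each also holds Col4a3, called lower. It was above background on both wild type arrays and on neither array of Mutant113 normal skin, so nothing is read from its call either. The comparisons share samples, so their values are given side by side and not as independent evidence.

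**Figure D1:**
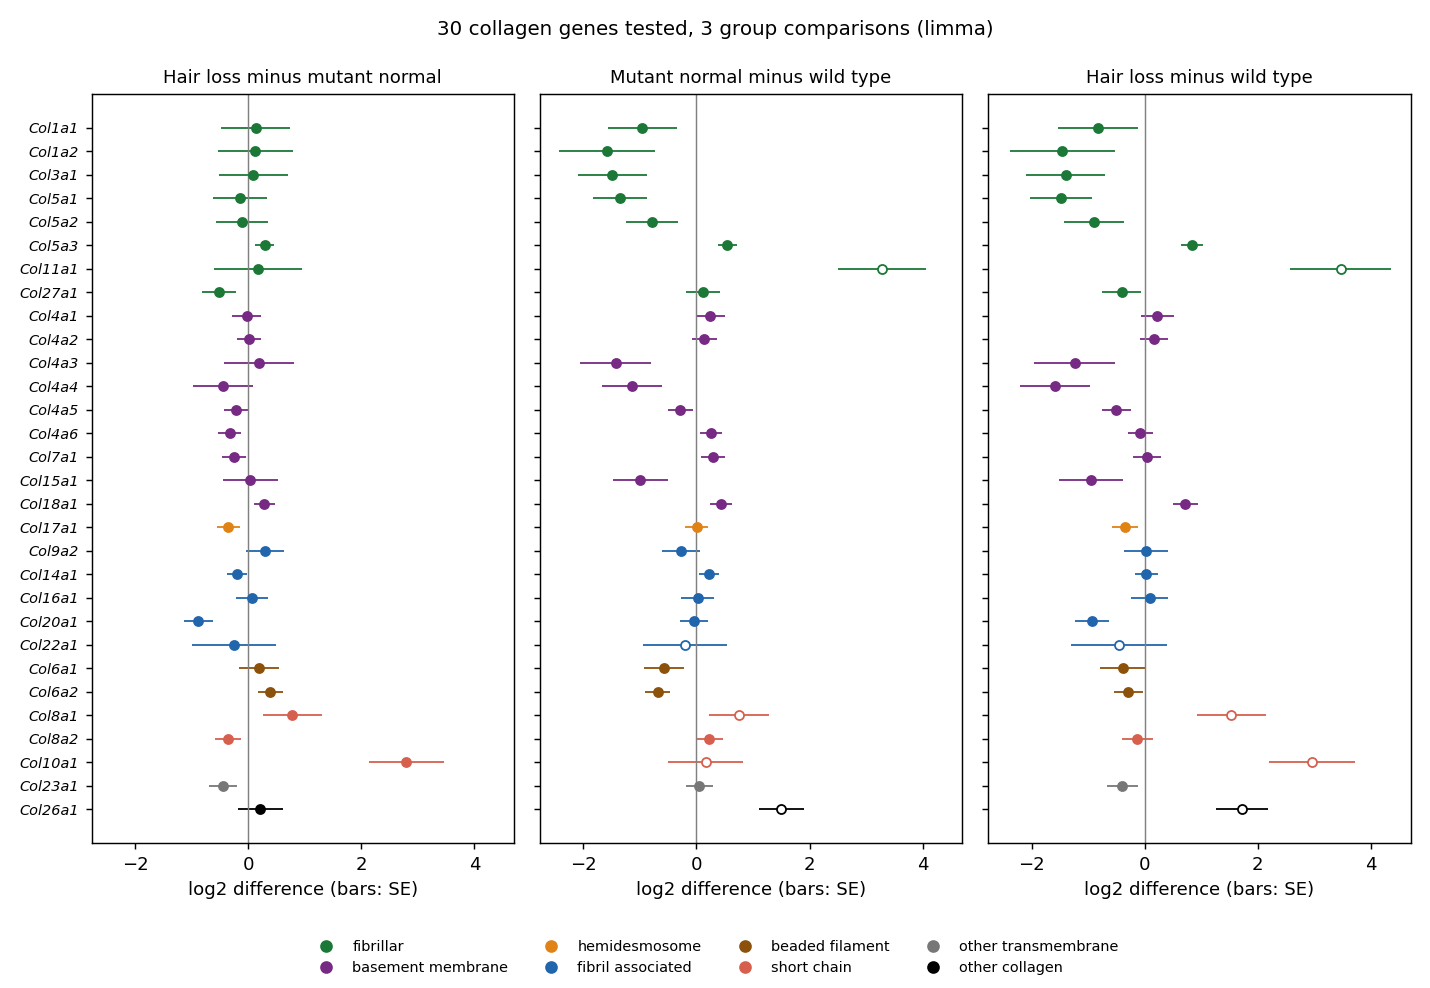
The log2 difference (x axis, bars are the standard error of the limma fit) of each of the 30 collagen genes tested (y axis, coloured by class) in the 3 group comparisons, with open circles where the probe was well above background on neither wild type array. Most type I, III and V chains lie left of 0 in both comparisons with wild type and near 0 between hair loss and normal skin of mutants, while Col5a3 lies right of 0 in all 3.

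Between normal skin of mutants and wild type, 5 of 8 were lower and their median log2 difference was -0.87, where the median of all probes tested was -0.03 (with the fibrillar genes at background included, theirs was 0.071). In hair loss skin against wild type 6 of 8 were lower with a median of -0.86, against -0.06 for all probes. Between hair loss and normal skin of mutants the median of the 8 genes was 0.11, against -0.01 for all probes. These medians moved with single samples. Against wild type they were -0.47 for normal skin of mutants and -0.34 for hair loss skin without wild type replicate 1, and -1.27 and -1.25 without wild type replicate 2. Between hair loss and normal skin of mutants the median was -0.29 without mutant normal replicate 4 and 0.35 without hair loss replicate 2.

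Col1a1, which encodes the main chain of type I collagen, had log2 levels of 8.55 and 7.59 in wild type, 7.66 and 8.12 in normal skin of Mutant097, 6.37 and 6.30 in normal skin of Mutant113, and 7.81 (Mutant097) and 6.69 (Mutant113) in hair loss skin. The 3 Mutant113 samples were the lowest of all, and the Mutant097 samples lay among the wild type values. Col1a1 was lower by 0.96 ± 0.61 (SE, adjusted p = 0.46) in normal skin of mutants than in wild type, and its hair loss difference was 0.13 ± 0.61 (adjusted p = 0.999).

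Col1a2 encodes the partner chain of type I collagen. It stood at 10.58 in wild type replicate 1, at 9.63 and 10.04 in normal skin of Mutant097, at 8.10 and 8.23 in normal skin of Mutant113, and at 9.76 and 8.49 in the hair loss skin of Mutant097 and Mutant113. The spot of wild type replicate 2 was marked as an outlier and left out, so the wild type side of every fit of this gene is 1 array. The difference between normal skin of mutants and wild type was -1.58 ± 0.85 (adjusted p = 0.40) and that between hair loss and normal skin of mutants 0.12 ± 0.66 (adjusted p = 0.999).

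Col3a1, the chain of type III collagen of young and pliable dermis, read 9.40 and 8.70 in wild type, 8.37 and 8.50 in normal skin of Mutant097, 6.79 and 6.60 in normal skin of Mutant113, and 8.05 and 7.26 in hair loss skin of Mutant097 and Mutant113. All 6 mutant samples were below both wild type samples, those of Mutant113 by more than those of Mutant097. It was 2.80-fold lower in normal skin of mutants than in wild type (log2 difference -1.49 ± 0.61, adjusted p = 0.27) and 2.64-fold lower in hair loss skin (-1.40 ± 0.70, adjusted p = 0.26). Neither difference passed the test.

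Type V collagen nucleates type I fibrils and sets their diameter, and its 3 chains did not go together. Col5a1 was at 4.86 and 4.23 in wild type, 3.74 and 4.01 in normal skin of Mutant097, 2.43 and 2.61 in normal skin of Mutant113, and 3.18 and 2.93 in hair loss skin. Every mutant sample was below both wild type samples. The gene was 2.54-fold lower in normal skin of mutants than in wild type (log2 difference -1.34 ± 0.48, adjusted p = 0.23) and 2.80-fold lower in hair loss skin (-1.48 ± 0.55, adjusted p = 0.15).

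Col5a2, a neighbour of Col3a1 in the genome, read 1.60 and 0.97 in wild type, 1.11 and 1.18 in normal skin of Mutant097, 0.01 and -0.32 in normal skin of Mutant113, and 0.36 and 0.42 in hair loss skin. The Mutant097 normal skin overlapped the wild type, and the other mutant samples were below it. Between normal skin of mutants and wild type the difference was -0.78 ± 0.46 (adjusted p = 0.42), beside the -1.49 of Col3a1.

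Col5a3 encodes a chain of a less common form of type V collagen. It read 3.001 and 2.834 in wild type, 3.59, 3.28, 3.54 and 3.43 in normal skin of mutants and 3.68 and 3.83 in hair loss skin. The groups did not overlap, and both mutant numbers lay together. It was 1.46-fold higher in normal skin of mutants than in wild type (log2 difference 0.54 ± 0.17, adjusted p = 0.18), 1.79-fold higher in hair loss skin than in wild type (0.84 ± 0.19, adjusted p = 0.07) and 1.23-fold higher in hair loss than in normal skin of mutants (0.30 ± 0.17, adjusted p = 0.99). None passed the test.

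Col11a1 encodes a chain of the cartilage-type fibrils. It falls outside the rule for named genes and was chosen after its values were seen. Its probe was not well above background on either wild type array (-5.16 and -4.98), and read -0.13 and -1.41 in normal skin of Mutant097, -2.20 and -3.41 in normal skin of Mutant113, and -1.23 and -1.98 in hair loss skin. It was at least 3.01-fold higher in normal skin of mutants than in wild type and at least 3.41-fold higher in hair loss skin, with adjusted p-values of 0.12 and 0.09. With another background correction (normexp) the fitted log2 difference from wild type shrank from 3.28 to 0.57 in normal skin of mutants and from 3.46 to 0.53 in hair loss skin. Col27a1, the remaining fibrillar gene tested, differed by -0.51, 0.11 and -0.40 in the 3 comparisons.

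**Figure D2:**
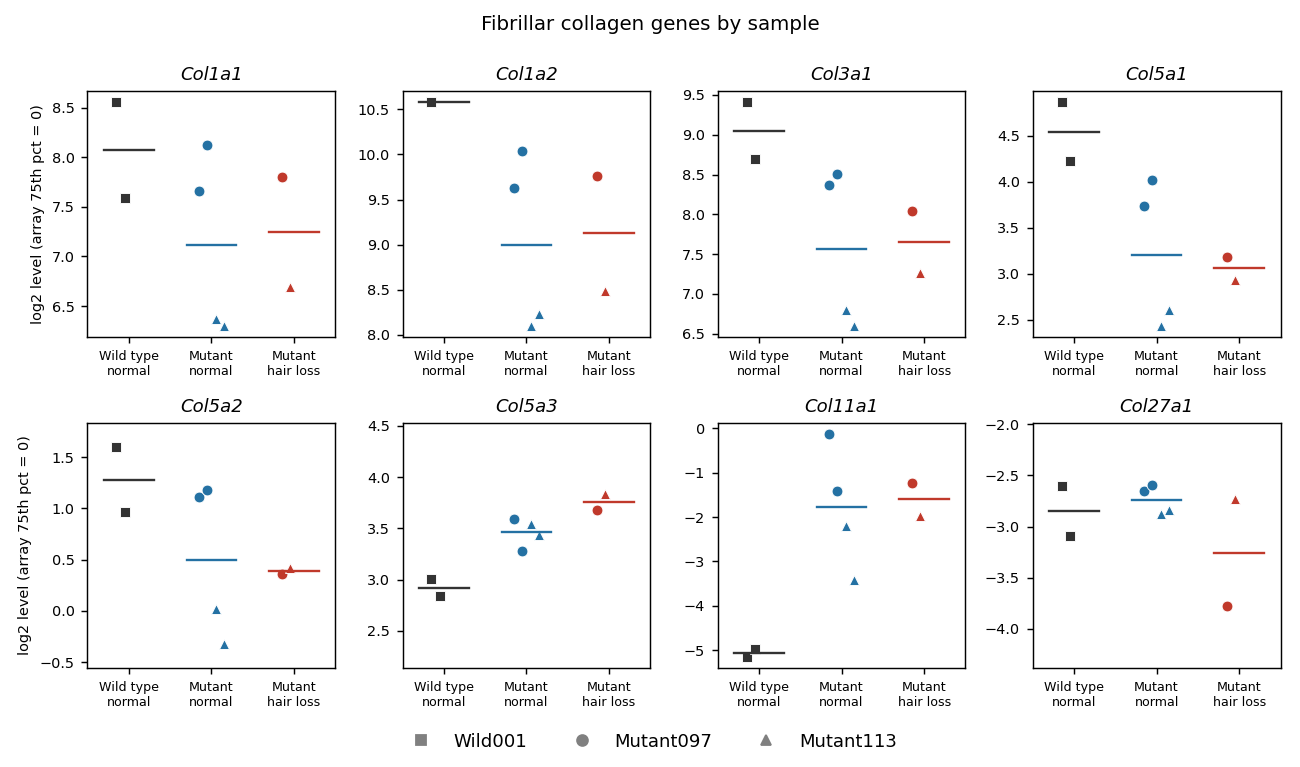
The log2 level (y axis, 0 is the 75th percentile of each array, a separate axis for each gene) of the 8 fibrillar collagen genes tested in each sample, with a line at the mean of each group and symbols for the title number. For Col1a1, Col1a2, Col3a1 and Col5a1 the 3 triangles of Mutant113 lie below the 3 circles of Mutant097, while the Col5a3 symbols are mixed.

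The title numbers were compared directly in the normal skin of the mutants. In normal skin, Mutant113 was lower than Mutant097 in 7 of 8 fibrillar genes, with a median log2 difference of -1.46, where all probes had a median of -0.05. No collagen gene was called (0 of 30, against 0.266% of all probes), and 11 of 30 had an unadjusted p under 0.05, against 15.8%. The unadjusted count holds Col8a1, at background in normal skin of Mutant097, and Col4a3, at background in that of Mutant113. Nothing is read from their place in it. Col3a1 was 3.35-fold lower in Mutant113 (log2 difference -1.74 ± 0.27, adjusted p = 0.08), Col1a2 3.18-fold (-1.67 ± 0.22, adjusted p = 0.09), Col1a1 2.94-fold (-1.56 ± 0.36, adjusted p = 0.17) and Col5a1 2.56-fold (-1.36 ± 0.26, adjusted p = 0.13). Col5a3 differed by 0.05 ± 0.19.

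Counting the hair loss skin too, the 3 Mutant113 samples were all below the 3 Mutant097 samples for 7 of 29 collagen genes measured on every array (Col1a1, Col3a1, Col5a1, Col11a1, Col15a1, Col16a1 and Col6a1), against 15.7% of all probes, and all above for 0 of 29, against 9.77%. Col1a2, left out of that count for its missing wild type spot, was lower in all 3 as well. The numbers overlapped for the other tested probes of Col15a1. With 1 of them the hair loss sample of Mutant113 read -2.85, against -3.43 to -2.95 in Mutant097. They also overlapped for 1 other probe of Col16a1. With lesion in the model, the 6 mutant samples gave 0 calls among 30 collagen genes, against 0.121% of all probes.

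Other features of the samples moved with the number. In normal skin of mutants the number coincides with the row of the slide, and the 2 cannot be told apart there. The hair loss sample of Mutant113, which shared slide row 1 with the Mutant097 samples, was below all 3 of them for Col1a1, Col1a2, Col3a1 and Col5a1. For Col5a2 it lay above the hair loss sample of Mutant097 (0.42 against 0.36) and for Col6a2 above all 3 (2.734 against 2.16 to 2.42). Sex-linked transcripts also moved with the number. The Y-linked Ddx3y read 1.32, 1.46 and 1.52 in Mutant097, 1.20 and 1.24 in wild type, and between -6.43 and -6.12 in Mutant113, and Xist was above 1 only in the 3 Mutant113 samples (1.09 to 1.15). These transcripts set Mutant113 apart from both Mutant097 and wild type. Wherever Mutant113 is compared with either, sex-linked expression and the number, or the genotype, cannot be told apart. The part of sex-linked expression in the collagen differences was not tested.

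Each mutant number was then set against wild type, a comparison added after the data were seen. Normal skin of Mutant113 had 6 of 30 collagen genes called, where 3.26% of all probes were called, and 15 of 30 at an unadjusted p under 0.05, against 19.5%. Col1a2 (5.32-fold, adjusted p = 0.03), Col3a1 (5.12-fold, adjusted p = 0.02), Col5a1 (4.07-fold, adjusted p = 0.02), Col4a3 and Col4a4 (adjusted p = 0.01 for both) fell, so that 5 of 30 were lower against 1.49% of all probes. The wild type side of Col1a2 was 1 array. Col4a3 was above background on both wild type arrays and on neither array of Mutant113 normal skin. Nothing is read from its call, here or with samples left out. The unadjusted count holds Col4a3, and also Col8a1, Col11a1 and Col26a1, which were above background on no wild type array. Nothing is read from their place in it. The sixth was Col8a1, called higher (1 of 30 against 1.77%, adjusted p = 0.04). Among mutant and wild type arrays it was above background only on those of Mutant113, so it entered the test through the group where it is high, and nothing is read from its call. The count was 0 without mutant normal replicate 3 or replicate 4, 3 (Col3a1, Col4a3 and Col4a4) without mutant normal replicate 1 or 2 or the first wild type sample, and 8 without the second. Normal skin of Mutant097 against wild type had 1 of 30 called against 0.998% of all probes, Col11a1 (at least 6.10-fold higher, adjusted p = 0.04; 0.781% of all probes were called higher), and 0 were called when any of the 6 samples of normal skin was left out. Col11a1 was above background on all 6 mutant arrays and on no wild type array, so it too entered the test through the samples where it is high, and its call is not read as support. Whether the difference from wild type was larger in Mutant113 than in Mutant097 is the difference between the numbers given above, which was not called for any collagen gene.

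Hair loss and normal skin were also compared within each number, with 1 hair loss sample each, which was assumed to vary like the samples of the other groups. In Mutant097, 7 of 8 fibrillar genes were lower in hair loss skin, with a median log2 difference of -0.43. In Mutant113, 8 of 8 were higher, with a median of 0.38. All probes had medians of -0.03 and 0.03. Col8a1 was above background on no Mutant097 array, Col10a1 on neither normal skin array of Mutant097 and Col4a3 on neither of Mutant113. The unadjusted counts below hold these genes, and nothing is read from their place in them. In neither number was a collagen gene called (0 of 30 in each, against 0.627% of all probes in Mutant097 and 0.00328% in Mutant113), and 7 and 2 of 30 had an unadjusted p under 0.05, against 13% and 4.8%. The difference between the 2 lesion effects was called for 0 of 30 collagen genes and 0% of all probes, and 6 of 30 had an unadjusted p under 0.05, against 9.49%.

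**Figure D3:**
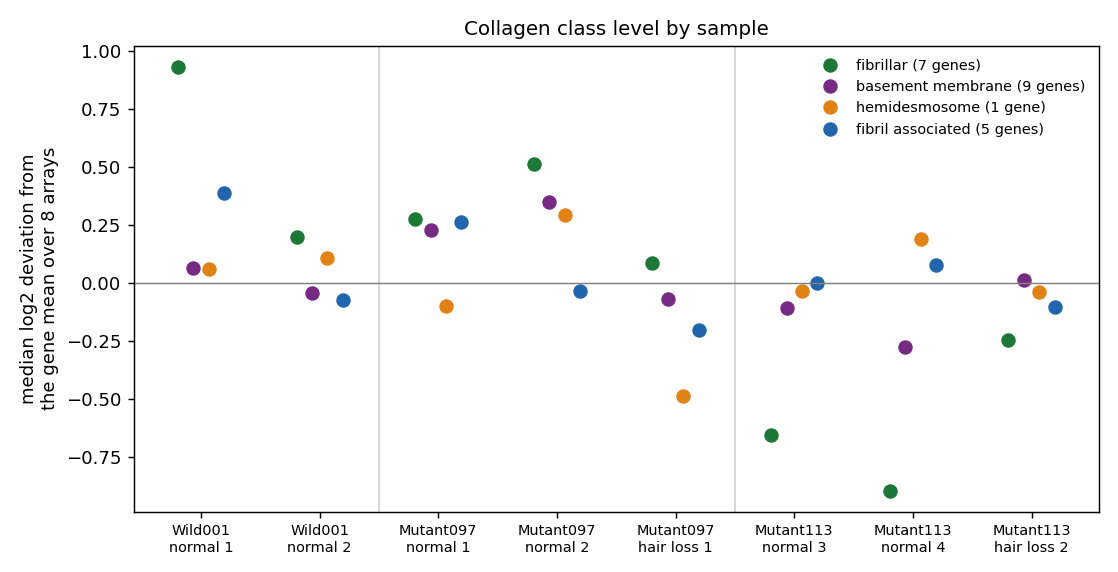
The median over the genes of a class of the log2 deviation from each gene's mean over 8 arrays (y axis), in each sample (x axis, grouped by title number), for genes measured on all arrays. The fibrillar points are highest in the wild type (0.93 and 0.20) and in normal skin of Mutant097 (0.28 and 0.52) and lowest in normal skin of Mutant113 (-0.65 and -0.89), while the basement membrane points stay between -0.27 and 0.35.

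The basement membrane genes stayed close to wild type as a class. Their median log2 difference was 0.14 between normal skin of mutants and wild type, -0.08 between hair loss skin and wild type, and -0.03 between hair loss and normal skin of mutants. Members differed widely, from -1.43 (Col4a3) to 0.43 (Col18a1) in normal skin of mutants against wild type. The 3 gene pairs of type IV collagen, each transcribed in opposite directions from neighbouring starts, are described in turn.

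Col4a1 and Col4a2 encode the chains found in nearly all basement membranes. Col4a1 was at 2.76 and 2.64 in wild type, 3.48, 2.95, 2.78 and 2.60 in normal skin of mutants and 2.84 and 3.01 in hair loss skin. Col4a2 was at 2.70 and 2.35 in wild type, 3.01, 2.62, 2.67 and 2.39 in normal skin of mutants and 2.62 and 2.76 in hair loss skin. Samples of the 3 groups overlapped for Col4a2, and for Col4a1 only hair loss skin was apart from wild type. The differences of normal skin of mutants from wild type were 0.25 ± 0.25 and 0.14 ± 0.21 (adjusted p = 0.65 and 0.77), and those of hair loss from normal skin of mutants -0.03 ± 0.25 and 0.02 ± 0.21. Fitted with the slide row as a block, the difference of Col4a1 between hair loss skin and wild type turned from 0.22 to -0.31. That fit takes the difference between the mutant numbers in normal skin as a row effect, so its value carries that difference.

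Col4a3 and Col4a4 encode chains best known from the kidney filter. Col4a4 read 0.25 and 0.11 in wild type, -0.24 and -0.07 in normal skin of Mutant097, -1.61 and -1.92 in normal skin of Mutant113, and -1.57 and -1.24 in hair loss skin of Mutant097 and Mutant113. All mutant samples were below wild type, and the hair loss skin of Mutant097 was closer to the Mutant113 samples than to its own normal skin. Its log2 difference was -1.14 ± 0.53 (adjusted p = 0.32) in normal skin of mutants and -1.59 ± 0.62 (adjusted p = 0.17) in hair loss skin against wild type, and -0.45 ± 0.53 (adjusted p = 0.999) between hair loss and normal skin of mutants. A second probe of Col4a4 gave -0.54, -0.58 and -0.04.

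Col4a3 showed a like order near background. It read -2.52 and -3.09 in wild type, -3.20 and -3.42 in normal skin of Mutant097, -5.18 and -5.13 in normal skin of Mutant113, and -4.32 and -3.76 in hair loss skin. It was above background on neither array of Mutant113 normal skin, where it was at least 1.78-fold lower than in that of Mutant097 (adjusted p = 0.07) and at least 2.53-fold lower than in wild type (adjusted p = 0.01). For Col4a4 the same comparisons gave 3.05-fold (adjusted p = 0.06) and 3.85-fold lower. With normexp the difference of normal skin of mutants from wild type was -0.45 in place of -1.43 for Col4a3, and -0.72 in place of -1.14 for Col4a4. For Col4a4 the 1 hair loss sample of Mutant097 lay 1.42 below normal skin of that number and the 1 of Mutant113 lay 0.52 above. With the spread taken from the other groups, the difference between these did not pass the test (adjusted p = 0.16).

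The third pair, Col4a5 and Col4a6, ranged from -0.52 to 0.22 and from 0.85 to 1.60 over the 8 samples. Their differences between normal skin of mutants and wild type were -0.29 and 0.25. Their differences between hair loss and normal skin of mutants were -0.21 and -0.33. A second probe of Col4a6 gave -0.33 between normal skin of mutants and wild type, opposite in sign to the first, and -0.32 between hair loss and normal skin of mutants. None passed the test.

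Col7a1, the chain of the anchoring fibrils, was at 4.44 and 4.12 in wild type, 4.67, 4.87, 4.25 and 4.54 in normal skin of mutants and 4.38 and 4.27 in hair loss skin. The groups overlapped. The differences were 0.30 ± 0.21 (adjusted p = 0.50) for normal skin of mutants against wild type and -0.26 ± 0.21 (adjusted p = 0.999) for hair loss against normal skin of mutants.

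Col18a1, whose end fragment is endostatin, was at 2.68 and 2.60 in wild type, 3.08, 3.04, 3.35 and 2.81 in normal skin of mutants and 3.46 and 3.25 in hair loss skin. All mutant samples were above wild type, in both numbers. It was 1.35-fold higher in normal skin of mutants (log2 difference 0.43 ± 0.19, adjusted p = 0.30) and 1.64-fold higher in hair loss skin (0.72 ± 0.22, adjusted p = 0.11) than in wild type. Col15a1, a related gene, differed by -0.99 and -0.95 in these comparisons, with wild type samples at 1.60 and 0.04.

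The hemidesmosome gene Col17a1 read 4.39 and 4.44 in wild type, 4.23, 4.62, 4.29 and 4.52 in normal skin of mutants, and 3.84 (Mutant097) and 4.29 (Mutant113) in hair loss skin. Normal skin of mutants and wild type differed by 0.00 ± 0.20, and the hair loss sample of Mutant097 was the lowest of all. Hair loss skin was 1.27-fold lower than normal skin of mutants (log2 difference -0.35 ± 0.20, adjusted p = 0.99). Without the hair loss sample of Mutant097 the difference was -0.13, and without that of Mutant113 it was -0.57. The difference between mutant numbers in normal skin was -0.02 ± 0.21.

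**Figure D4:**
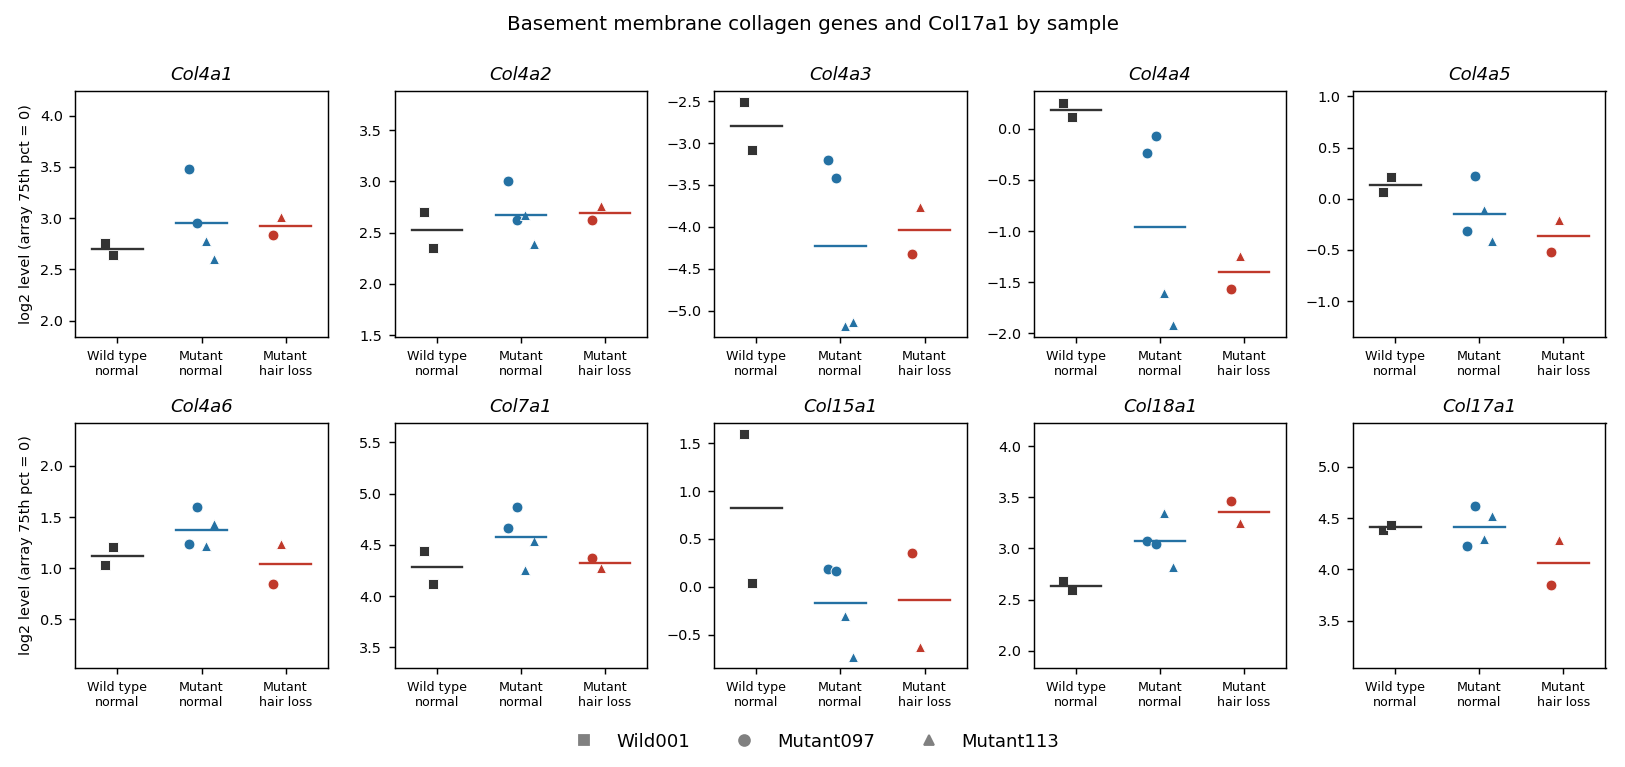
The log2 level (y axis, 0 is the 75th percentile of each array, a separate axis for each gene) of the 9 basement membrane collagen genes and Col17a1 in each sample, with a line at each group mean and symbols for the title number. Col4a3 and Col4a4 fall from wild type to the Mutant113 normal skin, Col18a1 is higher in all mutant samples, and Col17a1 is lowest in the hair loss sample of Mutant097.

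Among the 5 fibril-associated genes tested the median log2 difference was -0.19 between hair loss and normal skin of mutants, -0.04 between normal skin of mutants and wild type, and 0.02 between hair loss skin and wild type. Col20a1 was at -1.26 and -1.64 in wild type, -1.80, -1.27, -1.67 and -1.21 in normal skin of mutants, and -2.63 and -2.11 in hair loss skin. Both hair loss samples were below all others. The gene was 1.85-fold lower in hair loss than in normal skin of mutants (-0.89 ± 0.26, adjusted p = 0.77) and 1.90-fold lower than in wild type (-0.93 ± 0.30, adjusted p = 0.12), which did not pass the test, and with normexp the first difference was -0.36.

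The other fibril-associated genes stayed within 0.30 of 0 between hair loss and normal skin of mutants, from -0.26 (Col22a1) to 0.30 (Col9a2). Col14a1, which binds fibril surfaces, had probes that disagreed. The brighter one differed by 0.22 between normal skin of mutants and wild type, and the other by -1.45 (adjusted p = 0.17). Col16a1 lay between 5.24 and 6.09 in all samples, with differences of 0.07, 0.02 and 0.09 in the 3 comparisons. Its other probes gave -0.47 and -0.03 between normal skin of mutants and wild type.

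Collagen VI surrounds many cells with a filament mesh. Col6a1 was at 6.41 and 6.05 in wild type, 6.15 and 6.15 in normal skin of Mutant097, 5.29 and 5.03 in normal skin of Mutant113, and 5.87 and 5.83 in hair loss skin. Col6a2 was at 3.10 and 2.61 in wild type, 2.42, 2.16, 2.19 and 1.92 in normal skin of mutants and 2.398 and 2.734 in hair loss skin. Normal skin of mutants lay below wild type for Col6a2 in both numbers, but for Col6a1 only in Mutant113. Between normal skin of mutants and wild type the differences were -0.57 ± 0.35 and -0.68 ± 0.22 (adjusted p = 0.44 and 0.20), and between hair loss and normal skin of mutants 0.19 ± 0.35 and 0.39 ± 0.22.

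Col10a1 and Col8a1, short chain collagens known from growth plate cartilage and from vessel and corneal membranes, and Col26a1 were chosen after their values were seen. Col10a1 read -2.43 and -2.34 in hair loss skin, -5.85, -5.45, -3.48 and -5.93 in normal skin of mutants, and -4.94 and -5.75 in wild type, and was well above background on both hair loss arrays and on 1 other, mutant normal replicate 3. Its hair loss difference was 2.79 ± 0.66 (adjusted p = 0.71), with normal skin of mutants above background on 1 of 4 arrays. Without mutant normal replicate 3 no array of normal skin was above background, and hair loss skin was at least 2.73-fold higher (adjusted p = 0.03). The probe then entered the test only through the hair loss arrays, where it is high, so this call is not read as support. Against wild type, where it was above background on no array, hair loss skin was at least 1.98-fold higher (adjusted p = 0.09, and 0.01 without that replicate, with the same limit). With normexp the hair loss difference was 0.42 in place of 2.79. Of 5 chondrocyte markers, Hapln1, Matn1 and Matn3 were above background on no array. The other 2 were tested, and 1 of them was above background on all 8 arrays. Both were higher than wild type in normal skin of mutants (median log2 difference 0.997) and in hair loss skin (1.11), with 0 called. In normal skin of Mutant097 against wild type, 1 was called higher, against 0.781% of all probes, and the other was lower. The part of cartilage cells in the collagen differences was not tested.

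Col8a1 read -4.78 and -4.85 in wild type and -5.09 and -4.60 in normal skin of Mutant097, all at background, -3.47 and -3.09 in normal skin of Mutant113 and -3.28 and -3.27 in hair loss skin. Its call in Mutant113 against wild type was an increase of at least 1.07-fold, and with normexp its difference between normal skin of mutants and wild type was -0.07. Col26a1 read -4.93 and -5.36 in wild type and from -4.47 to -2.90 in the mutants, on 3 of whose 6 arrays it was above background. Of the remaining genes, Col8a2 and the transmembrane gene Col23a1 differed by -0.36 and -0.44 between hair loss and normal skin of mutants, and by 0.23 and 0.05 between normal skin of mutants and wild type. In the latter comparison a second probe of Col8a2 gave -0.15, and the other probes of Col23a1 gave -0.54 and -0.15. Col23a1 was lowest in the hair loss sample of Mutant097 (-1.38), with the other 7 samples between -0.82 and -0.41.

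Counts of samples without overlap sum up the 29 collagen genes measured on every array. Hair loss skin was above all normal skin of mutants for 2 genes (Col5a3 and Col10a1), against 5.73% of all probes, and below for 1 (Col20a1), against 6.68%. Normal skin of mutants was above wild type for 6 (13.6% of all probes) and below for 5 (14.8%). Hair loss skin was above wild type for 7 (24.8%) and below for 11 (28.5%). Col11a1 and Col26a1 in both counts above wild type, and Col8a1 and Col10a1 in that of hair loss skin, were above background on no wild type array. They entered the test through mutant arrays where they are high, as Col10a1 did through the hair loss arrays in the first count. Col22a1, in the count of hair loss skin below wild type, was above background on no wild type array and on 1 hair loss array. Nothing is read from the place of any of these genes in these counts. Of 9 collagen genes with several probes tested, the probes had the same direction in 9 between hair loss and normal skin of mutants, in 4 between normal skin of mutants and wild type and in 7 between hair loss skin and wild type.

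The genes that make, mature, hold and break down collagen were followed in lists chosen for their roles. Of 18 genes that modify and fold collagen chains, 17 were lower in normal skin of mutants than in wild type, with a median log2 difference of -0.54 and 0 called. Among all probes 16324 of 30466 were lower and 0.679% were called. In hair loss skin 17 were also lower, with a median of -0.68 and 1 called, where 16490 of 30466 probes were lower and 0.423% were called lower. That gene was Plod1, which hydroxylates lysines of collagen. It read 0.47 and 0.11 in wild type, -1.47, -1.09, -2.27 and -1.99 in normal skin of mutants and -1.85 and -1.71 in hair loss skin. All mutant samples were far below wild type. It fell by 2.07 ± 0.38 on the log2 scale in hair loss skin (adjusted p = 0.0497) and differed by -1.99 ± 0.33 in normal skin of mutants (adjusted p = 0.051). P4ha1, a prolyl hydroxylase subunit, differed by -0.80 and -1.15 from wild type in normal and hair loss skin (adjusted p = 0.12 and 0.054).

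Genes that trim procollagen and cross-link fibrils mostly lay below wild type. Of 11 tested, 10 were lower in normal skin of mutants than in wild type with a median of -1.23, 11 were lower in hair loss skin with a median of -1.32, and 0 were called in either. Among all probes 16324 and 16490 of 30466 were lower, and 0.679% and 1.41% were called. The lysyl oxidase genes Loxl1 and Loxl2 and the procollagen enhancer Pcolce2 differed by -1.23, -1.88 and -2.34 between hair loss skin and wild type (adjusted p = 0.08, 0.11 and 0.08). In normal skin, Mutant113 was below Mutant097 in 9 of 11 with a median of -1.40, 0 called. Between the numbers 16627 of 30466 probes were lower and 0.266% were called. Against wild type, 6 of these 11 were called lower in normal skin of Mutant113, where 1.49% of all probes were. In that of Mutant097, 0 were called, where 0.998% of all probes were.

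Genes of collagen breakdown had a median of -1.20 in normal skin of mutants against wild type, with 8 of 10 lower and 0 called. Among all probes 16324 of 30466 were lower and 0.679% were called. Mmp2, a gelatinase, read 6.18 and 5.98 in wild type, 4.48 and 5.02 in normal skin of Mutant097, 2.75 and 3.32 in normal skin of Mutant113, and 3.78 and 3.44 in hair loss skin. All mutant samples lay below wild type (difference of normal skin -2.19 ± 0.59, adjusted p = 0.15). Between the numbers 2 of 10 were called, against 0.266% of all probes. These were the collagen-degrading protease Ctsk, lower by 2.47 in Mutant113 (adjusted p = 0.03), and Mmp3, lower by 2.26 (adjusted p = 0.04), both named after their values were seen.

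Between hair loss and normal skin of mutants, 4 of the 10 breakdown genes were higher and 6 lower, with a median of -0.05. The count called was 0, as it was 0% of all probes. The inhibitor Timp1 was at 2.79 and 2.17 in hair loss skin, between -0.01 and 1.34 in normal skin of mutants and at 0.02 and 0.61 in wild type, so that both hair loss samples were above all others. Its hair loss difference was 1.82 ± 0.38 (adjusted p = 0.71). Mmp13 differed by 2.51 ± 0.87 (adjusted p = 0.90), with 2 of 4 normal skin samples of mutants above background.

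The proteoglycans that coat fibrils were lower than wild type in 7 of 7 genes in normal skin of mutants (median -0.78, 0 called) and in hair loss skin (median -0.97, 1 called). Of all probes, 16324 and 16490 of 30466 were lower in these comparisons, and 0.423% were called lower in hair loss skin. The called gene was Ogn (osteoglycin), at 4.78 and 4.68 in wild type, 4.09, 3.72, 3.59 and 3.74 in normal skin of mutants and 2.62 and 3.39 in hair loss skin. The groups were in that order without overlap. Ogn fell by 1.73 ± 0.29 on the log2 scale in hair loss skin against wild type (adjusted p = 0.04), and its hair loss difference from normal skin of mutants was -0.78 ± 0.25 (adjusted p = 0.84). Bgn (biglycan) differed by -1.25 between normal skin of mutants and wild type (adjusted p = 0.09).

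Collagen receptors and the partners at the epidermal border had medians closer to 0. The 6 receptor genes had a median of -0.22 in normal skin of mutants against wild type, with 0 called. The 8 partners of type XVII collagen in hemidesmosomes had medians of -0.07 in normal skin of mutants and -0.32 in hair loss skin against wild type, with 0 called in either. The 11 laminins and other basement membrane partners had medians of -0.14 and -0.24, with 0 called. Against wild type 0.679% of all probes were called in normal skin of mutants and 1.41% in hair loss skin. Lamb1 differed by 1.28 ± 0.25 between hair loss skin and wild type (adjusted p = 0.056) and Lama2 by -1.56 ± 0.50 (adjusted p = 0.12).

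**Figure D5:**
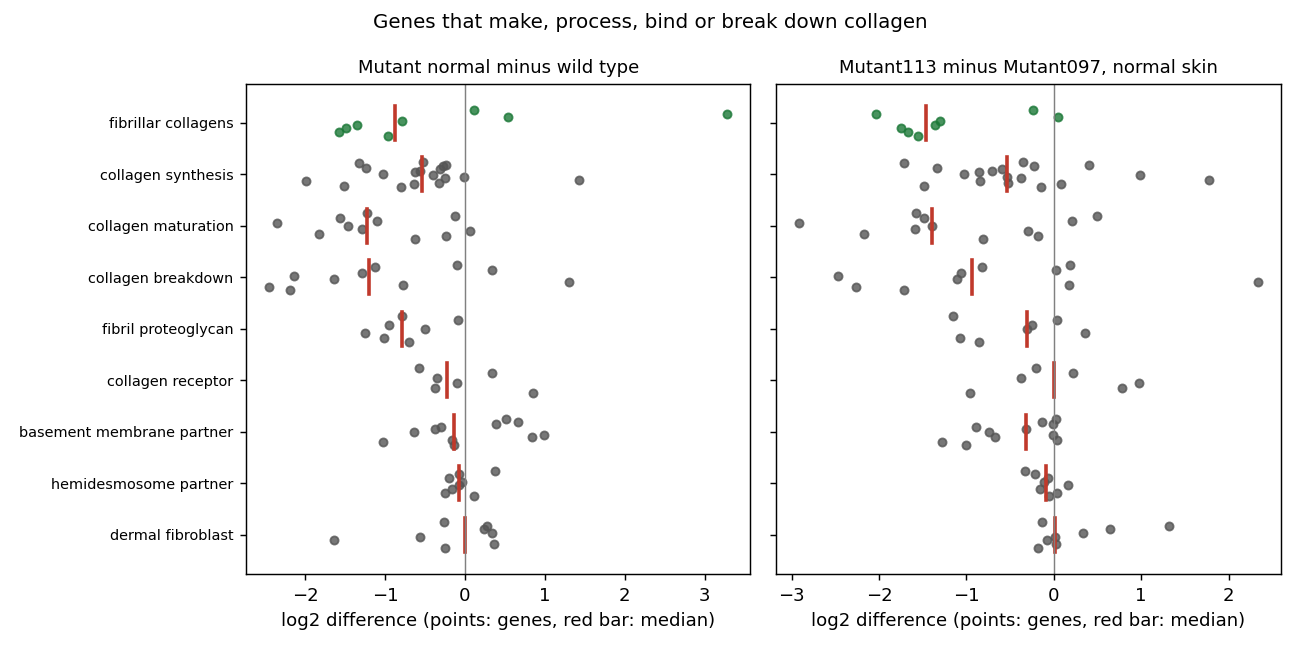
The log2 difference of each gene (points) and the median (red bar) of the fibrillar collagens and of lists of collagen partner genes and dermal fibroblast markers, for normal skin of mutants minus wild type (left) and, in normal skin, Mutant113 minus Mutant097 (right). The medians of fibrillar collagens, maturation genes and breakdown genes lie at -0.87, -1.23 and -1.20 on the left and -1.46, -1.40 and -0.94 on the right, and that of dermal fibroblast markers at 0.00 and 0.02.

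Markers of cell types were read beside these results. For the 8 dermal fibroblast markers (Pdgfra, Thy1, Dpt, Fbln1, Mfap5, Fap, Pi16 and Dpp4) the log2 of their summed intensity, relative to the 75th percentile of the array, was 6.56 to 7.16 in wild type, 6.65 to 6.91 in Mutant097 and 7.24 to 7.31 in Mutant113. A sum is led by its brightest genes. One by one, 5 of the 8 were higher and 3 lower in Mutant113 than in Mutant097 normal skin, with a median of 0.02 and 0 called. Of the 8, 1 was called against wild type, Dpt (dermatopontin, which itself binds collagen), lower by 1.63 in normal skin (adjusted p = 0.04) and by 1.88 in hair loss skin of mutants (adjusted p = 0.03). In these comparisons 0.112% and 0.423% of all probes were called lower.

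The summed level of hair shaft keratins was 0.41 to 1.08 in wild type, 7.31 to 9.99 in normal skin of mutants and 9.30 to 10.85 in hair loss skin. In both comparisons with wild type 6 of 7 were called higher, against 0.568% of all probes for normal skin and 0.988% for hair loss skin of mutants. Only 2 of the 7 were above background on all 8 arrays. Any keratin at background in wild type entered the test through mutant arrays where it is high, and nothing is read from its call. All 7 were higher in Mutant113 than in Mutant097 normal skin (median 2.82), 2 of them called against 0.266% of all probes. The 4 proliferation genes had medians of 1.90 and 2.23 in normal and hair loss skin of mutants against wild type, with 0 called, against 0.679% and 1.41% of all probes. The 7 skeletal muscle genes were all lower in hair loss than in normal skin of mutants, with a median of -1.77 and 0 called. Among all probes 15509 of 30466 were lower there and 0% were called. Between the numbers, in normal skin, all 7 muscle genes were higher in Mutant113 (median 0.93) and all 4 proliferation genes lower (median -1.14). In either list 0 were called, against 0.266% of all probes, of which 13839 of 30466 were higher and 16627 lower. The part of hair shaft, proliferating or muscle cells in the collagen differences was not tested.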

How the data were processed

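Skin RNA of 8 samples was hybridised to 1-colour Agilent mouse arrays. Per the file headers, the deposited scanner files give an intensity per spot, background-corrected by Feature Extraction (11.5.1.1, per the submitters' processing notes). The deposited matrix of log2 values by the authors matched log2 processed intensity within 0.01 of 1 constant per array for 55603 probes; it was used to choose probes. From the scanner files, log2 processed intensity was averaged over the spots of a probe without outlier flags, and the 75th percentile of the array was subtracted. Probes well above background on at least 2 of 8 arrays (30466) were fitted with limma 3.58.1 (R 4.3.3) in 1 model of 3 groups, and in a model of group and title number combined. Tests were two-sided, adjusted over all probes (Benjamini-Hochberg) and called under 0.05. A simulation called 79.5% of changes of 2 log2 units and 9% of changes of 1 between hair loss and normal skin of mutants (30417 probes). The changed probes were drawn at random, each with its own spread, so these shares are averages over probes. The standard error of this comparison was 0.61 for Col1a1 and Col3a1 and 0.20 for Col17a1, so the shares do not apply to each gene alike.

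A probe above background on no array of a group has only a bound there. "At least" folds set the brighter group's mean against the mean of, per array of the dimmer group, the higher of the probe's value and the lowest value well above background. The array files carry no symbols; accessions were matched to a RefSeq table, which named 26582 of 55681 probes. Of 44 collagen symbols in that table, Col12a1 and Col6a3 matched no probe and were not analysed here. Genomic positions of probes are not given, because the array design names another build. Collagen genes named were the 3 largest rises and falls per comparison among genes above background on all arrays, any called gene, neighbouring pairs, and Col17a1, Col7a1, Col1a1, Col1a2, Col3a1, Col4a1 and Col4a2; in other lists, at most the 3 with the smallest adjusted p. The members and lists were chosen with earlier results of these data known. Alternatives covered the scaling, background correction, filter, probe choice, outlier spots, slide row, title number as a block and leaving out each sample.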

Additional observations from a re-analysis of the deposited data

How the results depend on the processing

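The counts of collagen genes called and the class medians kept their values within the limits set for a change under most alternatives. The slide row block compares wild type with Mutant113 normal skin only, and both hair loss samples with Mutant097 normal skin only. Its hair loss differences therefore carry the difference between the title numbers. The count became 7 for normal skin of mutants against wild type and 6 for hair loss skin against wild type. Col3a1, Col5a1, Col5a2, Col4a3 and Col4a4 (lower) and Col8a1 (higher) passed the test in both. Col8a1 was above background on no wild type array and Col4a3 on no array of Mutant113 normal skin, so nothing is read from their calls. The fibrillar median then became -0.73 (hair loss against normal skin of mutants), -1.58 (normal skin of mutants against wild type) and -2.28 (hair loss skin against wild type), and the basement membrane median -0.32 and -0.33 for hair loss against normal skin of mutants and against wild type. Col4a1 between hair loss skin and wild type reversed to -0.31 with this block. Without the filter on dim probes, the fibrillar median of normal skin of mutants against wild type was 0.071, since genes at background were added, and the fibril-associated median of hair loss skin against wild type -0.44. With the mean over probes, the medians of hair loss skin against wild type were -0.36 (basement membrane) and -0.45 (fibril-associated), and with normexp, chosen after seeing the data, the latter was -0.20; the cause was not tested.

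Leaving out 1 sample at a time, the count of collagen genes called ranged from 0 to 1 for hair loss against normal skin of mutants and for hair loss skin against wild type, the 1 being Col10a1 without mutant normal replicate 3, when it was above background on hair loss arrays only. The fibril-associated median ranged from -0.30 to 0.037, from -0.23 to 0.17 and from -0.39 to 0.020 in hair loss against normal skin, normal skin of mutants against wild type and hair loss skin against wild type. Col17a1 ranged from -0.57 to -0.13 and from -0.57 to -0.12 in the comparisons of hair loss skin with normal skin of mutants and wild type. The titles give 2 mutant numbers and do not say what they mark, so the pairing is not established (correlation of deviations 0.13). With the title number as a replicate block, 0 of 30 collagen genes and 0% of all probes were called between hair loss and normal skin of mutants. With 2 to 4 arrays a group, differences of 1 log2 unit were mostly not detectable (9% called in simulated data).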
